A study of Mus musculus with 6 samples.

Results

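The genes of the retinoic acid receptors (Rara, Rarb, Rarg) and of the retinoid X receptors (Rxra, Rxrb, Rxrg) were followed through an RNA sequencing study of mouse F9 cells, an embryonal carcinoma line that differentiates towards endoderm when given retinoic acid (RA). They were taken by symbol, and each of the 6 symbols matched 1 of 25904 genes in the deposited table. The libraries came from 3 lines: shRxr, with a short hairpin RNA against a retinoid X receptor, shCtbp2, with one against the corepressor Ctbp2, and the control line shGFP. Each line was sequenced after 48 hours in 1 µM all-trans RA (RA) and untreated (UT), and every culture grew in charcoal-stripped serum, so the 6 libraries are 6 groups of 1. The labels name no replicate culture, do not say which retinoid X receptor gene the shRxr hairpin targets, and do not say whether a line is a clone or a pool.

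The RAR proteins bind all-trans RA and sit on DNA as heterodimers with an RXR protein. Without ligand the pair holds corepressor complexes at its target genes, and with ligand it exchanges them for coactivators. RXR proteins also serve as the partner of other nuclear receptors, among them the thyroid hormone, vitamin D, peroxisome proliferator and liver X receptors. In F9 cells, loss of the Rarg or the Rxra gene is known to impair differentiation in RA, and Rarb is a classical gene that RA switches on.

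The element through which RA receptors are known to act on Rarb can be read in its promoter. RAR and RXR pairs bind direct repeats of a hexamer. It was searched for on both strands as AGGTCA or as AGTTCA, and in the forms that begin with G, which are GGGTCA as one and GGTTCA as the other, with 5 bases between the hexamers (a DR5 element), 2 bases (DR2) or 1 base (DR1). Sequences were read from RefSeq promoter windows of build GRCm38.p6, which run from 250 bases before a gene's start to 50 after it. The 250 bases before the Rarb start (chr14:16575477-16575726, minus strand) are shown 5′ to 3′ because they hold the only DR5 element in the 13 windows of the 6 receptor genes. Capitals mark its 2 hexamers.

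Rarb promoter: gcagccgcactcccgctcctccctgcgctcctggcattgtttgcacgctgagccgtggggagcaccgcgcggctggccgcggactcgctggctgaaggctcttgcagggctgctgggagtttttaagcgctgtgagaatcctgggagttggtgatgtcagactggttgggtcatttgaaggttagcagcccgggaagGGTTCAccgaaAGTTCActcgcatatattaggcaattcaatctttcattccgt

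The element lies between 53 and 37 bases before the start, at chr14:16575513-16575529. Of the 32851 windows in the table, 32 held a DR5 element (0.0974%), 88 a DR2 (0.268%), 73 a DR1 (0.222%), and 43.7% held at least 1 hexamer. No DR2 or DR1 was found in the windows of the receptor genes. The Cyp26a1 window, of the gene for the enzyme that breaks RA down, also held a DR5 element, at chr19:37697776-37697792. To compare both, each is written below on the strand on which the hexamers read forward, with the hexamers in capitals. They share the second hexamer and differ in the first and in the spacer.

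Rarb DR5: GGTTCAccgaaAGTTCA

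Cyp26a1 DR5: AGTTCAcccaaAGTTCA

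Of all genes with a DR5 window, 4 passed the minimum on expression, and 3 of them were raised by RA over the lines (limma, adjusted p below 0.05): Cyp26a1, Rarb and Blvrb, a biliverdin reductase. The 4th, Gm4631, had a log2 RA effect of -0.94 (limma adjusted p 0.052). Blvrb and Gm4631 are named after their values were seen. Of 8728 tested genes with any window 949 were raised. A match of letters is a description of the window and shows no binding.

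Levels below are normalised reads, that is reads of a gene per 10000000 reads counted in genes. Between 9955808 and 13322506 reads per library were counted, so 3 reads correspond to 2.25 to 3.01 normalised reads. The minimum for testing was a mean level of 20 over the 6 libraries, which 12332 genes reached. Rxrg, with a mean of 9.91, fell below it, which left 5 of the 6 receptor genes for testing. The hairpin target Ctbp2 stood at 55.4 and 210.1 normalised reads in shCtbp2 (RA and UT), at 1132 and 1632 in shRxr, and at 701 and 1811 in shGFP. All 8 markers of F9 embryonal carcinoma were above the minimum, with Pou5f1 between 8530 and 26185, while blood and hepatocyte markers summed to at most 3.01 and 5.25. The blood sum covers 3 of 5 listed markers (Ptprc, Hba-a1 and Cd52), since Hbb-b1 and Tyrobp were not found by symbol. The 6 fibroblast markers summed to between 131 and 519. Of these, Col1a1, Col1a2, Col3a1 and Dcn stayed at or below 24.0, Pdgfrb stood between 28.2 and 465 and rose with RA (log2 3.03, limma adjusted p 9.92e-05), and Thy1 stood between 10.04 and 131 and fell (-1.72, adjusted p 0.0035). In bulk RNA, fewer cells that express a gene and less RNA per cell cannot be told apart. Intervals of levels and folds are 95% intervals for counting error only, since no group has a replicate.

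**Figure D1:**
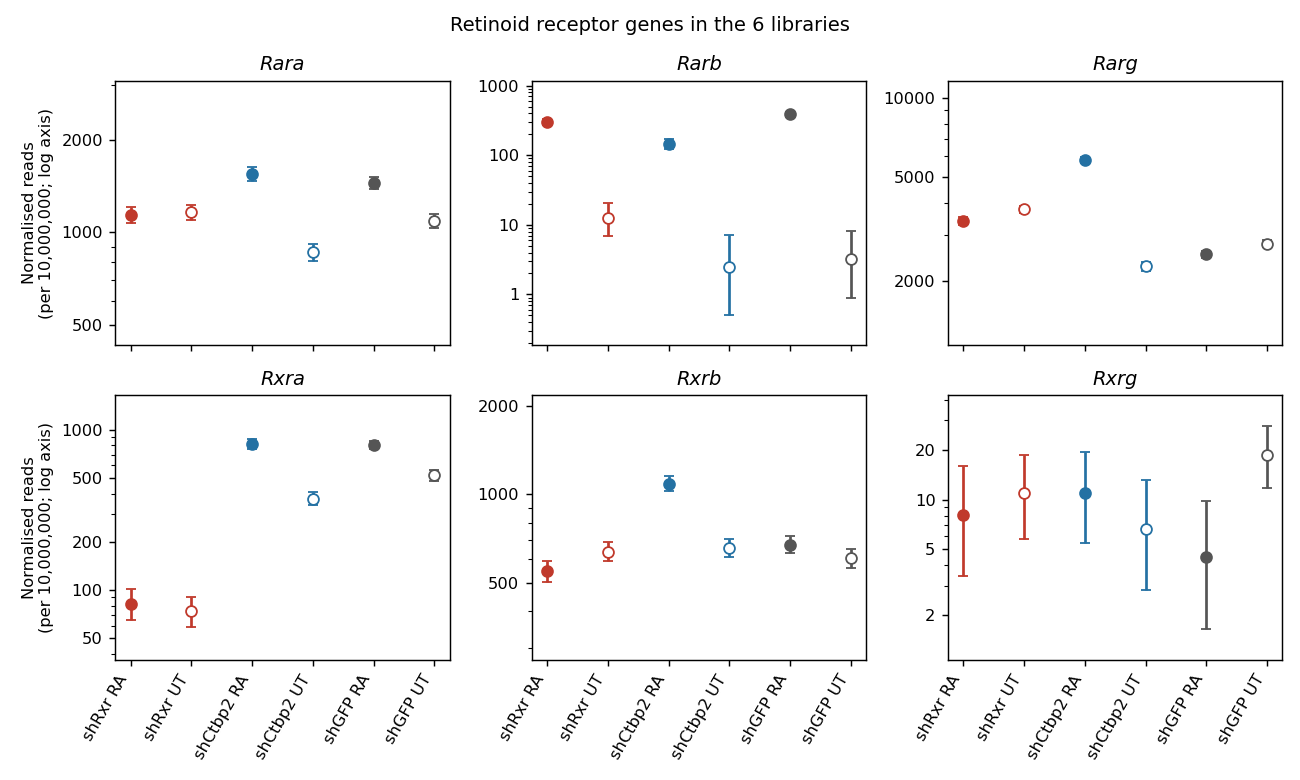
Normalised reads of the 6 receptor genes (vertical log axes, a different range in each panel) in each library, with RA filled and untreated open; bars are 95% counting intervals. Rarb is above 145 in the 3 RA libraries and below 13 in the 3 untreated ones, and Rxra is below 83 in both shRxr libraries and at 372 or more in the other 4.

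Per transcript length, Rarg was the most abundant of the 6 in every library. Rarg (ENSMUSG00000001288, mm9 chr15:102065369-102087948), the RAR subtype most tied to F9 differentiation, stood at 3411 and 3766 normalised reads in shRxr (RA and UT), at 5818 and 2285 in shCtbp2, and at 2534 and 2791 in shGFP. The shCtbp2_RA library was the highest of the 6 and shCtbp2_UT the lowest.

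Rara (ENSMUSG00000037992, mm9 chr11:98789132-98836256), the broadly expressed RAR subtype, stood at 1138 and 1162 normalised reads in shRxr (RA and UT), at 1549 and 862 in shCtbp2, and at 1445 and 1091 in shGFP. The highest and the lowest library, both of shCtbp2, differed 1.80-fold. A small nuclear RNA gene lies inside Rara and had 0 reads in every library.

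Rarb (ENSMUSG00000017491, mm9 chr14:17263356-17651381) stood at 301 and 12.6 normalised reads in shRxr (RA and UT), at 145.5 and 2.48 in shCtbp2, and at 390 and 3.22 in shGFP. The untreated values rest on 15, 3 and 4 reads in shRxr, shCtbp2 and shGFP, so those of shCtbp2 and shGFP cannot be told apart at this depth. RA and untreated libraries did not overlap, and the share of all tested genes for which this holds was not counted.

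Among the RXR genes, Rxra (ENSMUSG00000015846, mm9 chr2:27531960-27618477), the partner most used by RARs in many tissues, stood at 82.4 and 73.7 normalised reads in shRxr (RA and UT), at 821 and 372 in shCtbp2, and at 805 and 520 in shGFP. Both shRxr libraries were below all others. RA was above untreated in each line, though by less than counting error in shRxr. Rxrb (ENSMUSG00000039656, mm9 chr17:34168757-34175338), a broadly expressed RXR, stood at 546 and 638 in shRxr, at 1085 and 658 in shCtbp2, and at 673 and 605 in shGFP. The shCtbp2_RA library stood above the other 5, which lay within 546 to 673.

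Rxrg (ENSMUSG00000015843, mm9 chr1:169528515-169569754), an RXR known mainly from muscle and brain, had few reads. It stood at 8.04 and 10.9 normalised reads in shRxr (RA and UT), at 10.9 and 6.62 in shCtbp2, and at 4.50 and 18.5 in shGFP, which rest on 6 to 23 reads. Its interval in shGFP_RA (1.65 to 9.80) lay below that in shGFP_UT (11.7 to 27.8), and the intervals of the other libraries overlapped each other.

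Levels of different genes were compared per length, as normalised reads per kb of the longest transcript in the GENCODE M21 annotation. In every library the order of levels per kb was Rarg, then Rara, then Rxrb. Rara and Rxrb did not differ beyond counting error in shCtbp2_UT, where they stood at 255 and 250.3 per kb. Rxra came 4th in 5 libraries and 5th, behind Rarb, in shRxr_RA, where it stood at 16.8 per kb and Rarb at 97.0. Rxrg and untreated Rarb were at most 8.78 per kb, and their intervals overlapped in shRxr_UT and shCtbp2_UT.

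The 3 RAR genes together stood at 1588 and 1623 normalised reads per kb in shRxr (RA and UT), at 2475 and 1029 in shCtbp2, and at 1411 and 1269 in shGFP. The 3 RXR genes together stood at 229 and 263 per kb in shRxr, at 585 and 329 in shCtbp2, and at 423 and 345 in shGFP. RAR transcripts thus outnumbered RXR transcripts per length in every library, 6.95-fold and 6.17-fold in shRxr (RA and UT), 4.23-fold and 3.12-fold in shCtbp2, and 3.34-fold and 3.68-fold in shGFP. Both shRxr ratios were above the other 4. The RXR sum per kb in shRxr was 0.541 of that in shGFP with RA and 0.762 of it untreated. These values depend on the division by length. Summed reads without it gave 0.429 with RA (0.392 to 0.470) and 0.632 untreated (0.580 to 0.688).

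The make-up of the RXR sum differed between the lines. Rxra made up 7.35% and 5.71% of it per length in shRxr (RA and UT), 28.6% and 23.0% in shCtbp2, and 38.9% and 30.7% in shGFP. Rxrb made up 91.0% and 92.3% in shRxr, 70.5% and 76.0% in shCtbp2, and 60.6% and 66.7% in shGFP. The length used sets the order in shGFP_RA, where the Rxra share per coding length was 57.1% and the Rxrb share 42.6%. In shGFP_UT Rxrb stayed ahead per coding length, at 50.004%, with Rxra at 48.3%. In shRxr the Rxra share stayed the smaller per coding length, at 14.3% and 11.3%.

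Of the RAR sum, Rarg made up 72.7% and 78.6% per length in shRxr (RA and UT), 79.6% and 75.2% in shCtbp2, and 60.8% and 74.5% in shGFP. Rarb took 6.10% in shRxr_RA, 1.89% in shCtbp2_RA and 8.90% in shGFP_RA, against 0.249%, 0.0776% and 0.0817% in the untreated libraries of the same lines. Rarb thus remained a minor share of the RAR transcripts with RA in all 3 lines.

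**Figure D2:**
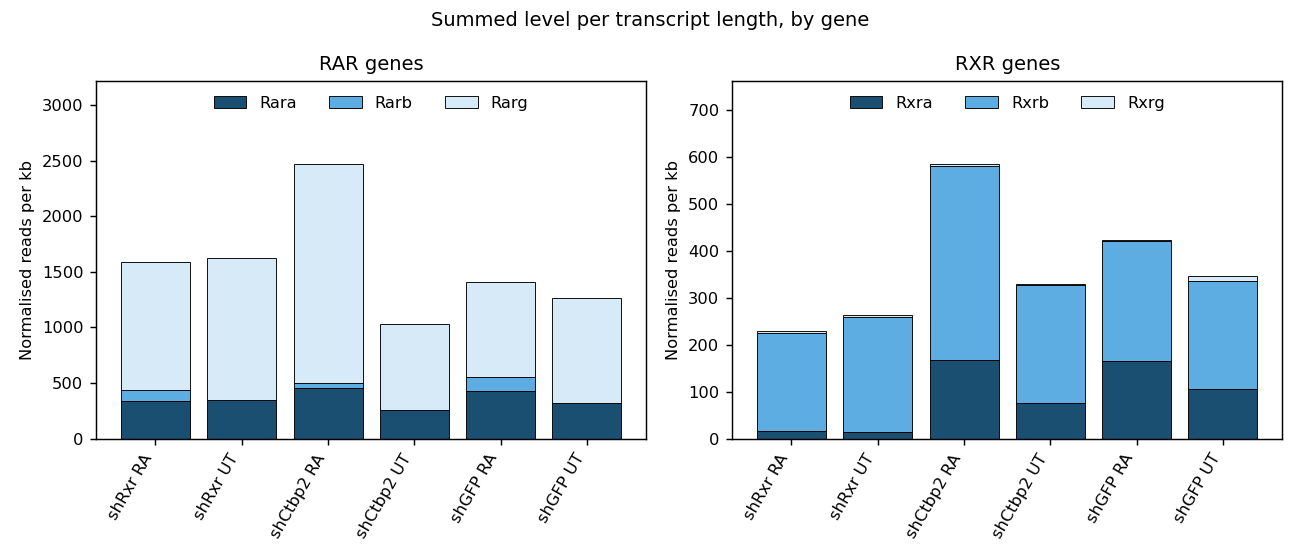
Summed normalised reads per kb of longest transcript (vertical axes) of the RAR genes (left) and RXR genes (right) in each library, stacked by gene. Rarg is the largest part of every RAR bar, and Rxra is 7.35% and 5.71% of the RXR bars of shRxr (RA and UT), against 23.0% to 38.9% in the other 4.

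The first comparison set RA against untreated cells, and Rarb was the receptor gene that rose. Over the 3 lines its RA effect was 4.12 on the log2 scale (SE 0.33, limma adjusted p 1.2e-05), the 14th highest of 12332 genes. It was higher with RA in 3 of 3 lines and was called under each of the 12 alternative settings, with log2 effects from 2.48 to 5.59. The model takes the lines as replicates, on log2(normalised reads + 10), so its error holds the differences between lines. The scale understates the change of a gene as low as untreated Rarb. RA raised 10.8% and lowered 4.63% of all tested genes. With equal upper quartiles as the scaling, 1330 genes were raised and 966 lowered, against 1327 and 571 as deposited.

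The other tested receptor genes did not pass this test. Rxra had a log2 RA effect of 0.63 (95% interval 0.02 to 1.24, limma adjusted p 0.15), Rara of 0.40 (-0.18 to 0.98, adjusted p 0.33), Rarg of 0.35 (-0.33 to 1.03, adjusted p 0.48) and Rxrb of 0.22 (-0.38 to 0.81, adjusted p 0.63). The intervals include changes of about 2-fold in each of Rxra, Rara and Rarg. Without the shCtbp2_RA library the Rarg effect was -0.14 and the Rxrb effect -0.03. Rxrg, fitted with no minimum on expression, had an effect of -0.29 (limma adjusted p 0.56).

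Markers of differentiation moved in the same contrast. All 8 tested endoderm markers rose and 5 of 8 embryonal carcinoma markers fell, beside 10.8% raised and 4.63% lowered of all tested genes. The endoderm marker Thbd was below the minimum for testing. Pou5f1, Nanog and Dppa5a did not pass. In shCtbp2, Pou5f1 stood at 26185 with RA and 18524 untreated, and Dppa5a at 8488 and 4940. Both were lower with RA in shRxr and shGFP. Summed endoderm markers stood at 9495 and 3799 normalised reads in shRxr (RA and UT), at 13506 and 5319 in shCtbp2, and at 20633 and 4472 in shGFP. Their part in the Rarb result was not tested.

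Within single lines, Rarb was 24.0-fold higher with RA in shRxr (14.3 to 43.4), 58.6-fold in shCtbp2 (19.7 to 288) and 121-fold in shGFP (47.0 to 446). The shRxr interval lay below that of shGFP, and the shCtbp2 interval overlapped both. On the log2(normalised reads + 10) scale the RA change of Rarb was 3.79 in shRxr, 3.64 in shCtbp2 and 4.92 in shGFP. The response was thus smaller than in shGFP by 1.13 in shRxr and by 1.28 in shCtbp2. A difference in RA response of at least 1 in either direction was found for 10.1% of tested genes between shRxr and shGFP and for 15.2% between shCtbp2 and shGFP. The shRxr and shCtbp2 differences share the shGFP libraries. With a pseudocount of 50 in place of 10 the shRxr difference of Rarb was -0.56, under the size of 1, and the shCtbp2 difference -1.15. With a pseudocount of 1 the shRxr difference was -2.06 and the shCtbp2 difference -1.14. Which of these lines had the smaller Rarb response thus depends on the pseudocount.

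Levels of Rarb with RA and without it are given apart. With RA, Rarb was 0.772 of the shGFP level in shRxr (0.668 to 0.892) and 2.68-fold lower than in shGFP in shCtbp2 (2.23 to 3.24). Untreated, it was 3.90-fold higher in shRxr than in shGFP (1.24 to 16.1), on 15 reads in shRxr against 4 in shGFP. In shCtbp2_UT it was at 0.770 of shGFP_UT (0.113 to 4.55), on 3 reads against 4, a difference not detectable at this depth.

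**Figure D3:**
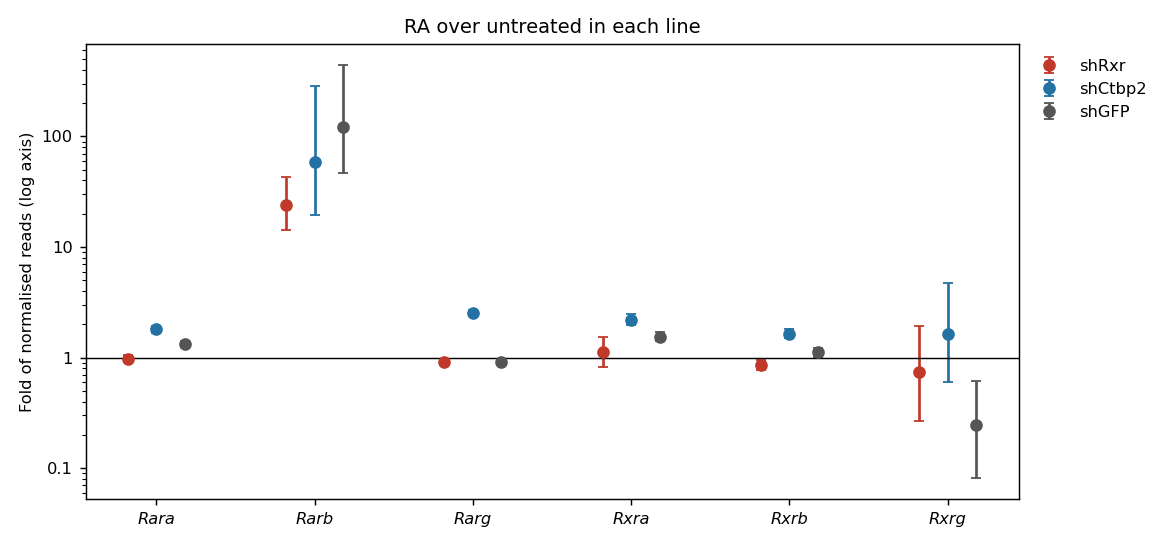
Fold of normalised reads, RA over untreated (vertical log axis), of each receptor gene in shRxr, shCtbp2 and shGFP, with 95% counting intervals and a line at 1. Rarb stands between 24.0 and 121 in all lines, and Rarg stands at 2.55 in shCtbp2 but at 0.906 in shRxr and 0.908 in shGFP.

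The remaining tested receptor genes were higher with RA in shCtbp2 by more than in the other lines. Rarg was 2.55-fold higher with RA in shCtbp2 (2.43 to 2.67), against 0.906 in shRxr (0.866 to 0.947) and 0.908 in shGFP (0.866 to 0.952). Rxra was at 1.12 in shRxr (0.818 to 1.53), at 2.20 in shCtbp2 (1.96 to 2.48) and at 1.55 in shGFP (1.403 to 1.71). Rara was at 0.980 in shRxr (0.905 to 1.06), at 1.80 in shCtbp2 (1.66 to 1.95) and at 1.32 in shGFP (1.23 to 1.42). Rxrb was at 0.857 in shRxr (0.766 to 0.958), at 1.65 in shCtbp2 (1.50 to 1.81) and at 1.11 in shGFP (1.01 to 1.23).

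Counted by size, 2-fold or more in either direction on the log2(normalised reads + 10) scale, 1 of 5 receptor genes passed in shRxr, against 6.72% of all tested genes. In shCtbp2, 3 of 5 passed (Rarb, Rarg and Rxra), against 34.4% of tested genes, and in shGFP 1 of 5, against 20.4%. The shCtbp2_RA library thus differed from its untreated library over much of the transcriptome.

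That library also stood apart in base composition. Across 12133 tested genes, the deviation of a library from the mean of all libraries ran with the GC content of the transcript at a Spearman rho of 0.65 in shCtbp2_RA and 0.25 in shGFP_RA, and of -0.44 to -0.40 in the other 4, as a description, since genes are not independent replicates. The receptor genes are GC-rich: Rara (59.2%), Rarg (58.8%), Rxra (57.0%), Rxrb (61.4%) and Rxrg (54.6%) lay above the median of 50.1% of tested genes, and Rarb, at 47.8%, below it. After each library was corrected for GC content and length, the log2 RA change in shCtbp2 was 0.58 for Rarg, against 1.34 uncorrected. It was 0.58 for Rxra, against 1.12 uncorrected, 0.07 for Rara, against 0.84, and -0.18 for Rxrb, against 0.71. In shGFP the corrected log2 RA change was -0.04 for Rara, against 0.40 uncorrected, and 0.17 for Rxra, against 0.62. There it was -0.30 for Rxrb, against 0.15, and -0.54 for Rarg, against -0.14. For Rarg the RA response of shCtbp2 minus that of shGFP was 1.12 corrected and 1.48 uncorrected. Rarb changed little, with a log2 RA change in shCtbp2 of 3.80 corrected and 3.64 uncorrected.

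The second comparison set the shRxr line against shGFP, and Rxra was the receptor gene that fell. Over both treatments its effect was -2.90 on the log2 scale (SE 0.35, limma adjusted p 0.015), the largest fall and the only call among 12332 genes. It was lower in 2 of 2 treatments. In all, 0% of tested genes were raised and 0.00811% lowered, while 152 genes had an unadjusted p below 0.05. The call was lost without the shCtbp2_RA library (limma adjusted p 0.10), without the shCtbp2 line (0.14) and with no minimum on expression (0.13). Over the 10 alternatives the adjusted p ranged between 0.00029 and 0.14, and the log2 effect between -3.06 and -2.45.

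Rxra was 9.78-fold lower in shRxr than in shGFP with RA (7.81 to 12.4) and 7.06-fold lower untreated (5.65 to 8.93). Rxrb was at 0.812 of shGFP with RA (0.728 to 0.904) and at 1.05 untreated (0.952 to 1.17). Rxrg was at 1.78 with RA (0.543 to 6.24) and at 0.587 untreated (0.273 to 1.21), so its counting intervals included 1. Over both treatments the log2 shRxr effect of Rxrb was -0.11 (95% interval -0.84 to 0.62, limma adjusted p 1).

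Of the RAR genes, Rarg was 1.35-fold higher in shRxr than in shGFP with RA (1.28 to 1.41) and 1.35-fold untreated (1.29 to 1.41). Its log2 effect over both treatments was 0.43 (95% interval -0.40 to 1.26) and did not pass the test (limma adjusted p 1). The error of that fit is shared over all lines. Without the shCtbp2 line the Rarg effect was again 0.43, with an SE of 0.16 against 0.39, and it was not called there either. Rara was at 0.788 with RA (0.731 to 0.848) and at 1.06 untreated (0.987 to 1.15). Corrected for GC content and length, the log2 difference from shGFP with RA was -0.05 for Rara, against -0.34 uncorrected. It was 0.70 for Rarg, against 0.43, and 0.01 for Rxrb, against -0.30. For Rxra it was -2.88, against -3.14. Untreated, the Rarg difference was 0.37 corrected and 0.43 uncorrected. By the 2-fold size rule 1 of 5 receptor genes, Rxra, differed between shRxr and shGFP at each treatment, against 6.36% of tested genes with RA and 0.454% untreated.

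**Figure D4:**
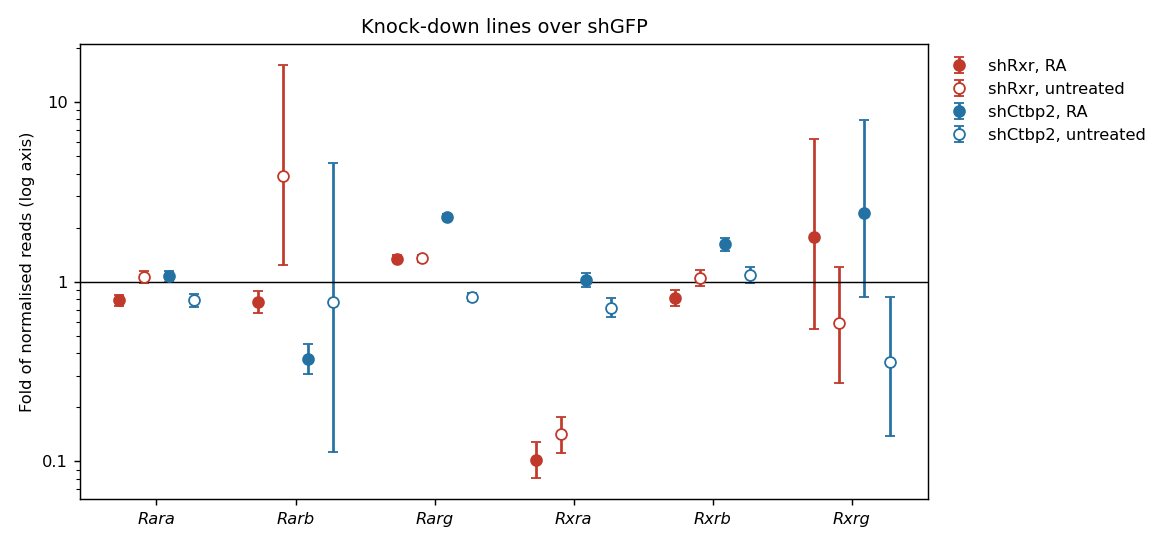
Fold of normalised reads over shGFP (vertical log axis) of each receptor gene in shRxr and shCtbp2, with RA filled and untreated open, 95% counting intervals and a line at 1. Rxra stands at 0.102 (RA) and 0.142 (untreated) in shRxr, and Rarg at 2.30 in shCtbp2 with RA.

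The third comparison set the shCtbp2 line against shGFP, and no receptor gene passed the test over both treatments. The log2 effects were -0.72 for Rarb (95% interval -1.59 to 0.14, limma adjusted p 0.65), 0.45 for Rarg (-0.38 to 1.29, adjusted p 0.71), 0.40 for Rxrb (-0.33 to 1.13, adjusted p 0.71), -0.22 for Rxra (-0.97 to 0.53, adjusted p 0.83) and -0.12 for Rara (-0.83 to 0.59, adjusted p 0.91). The median of all tested genes was -0.12 as deposited and -0.0023 with equal upper quartiles. Of all tested genes 0.105% were raised and 0.0405% lowered, 13 and 5 genes, against 43 and 35 with equal upper quartiles.

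With RA, 2 of 5 receptor genes differed 2-fold or more between shCtbp2 and shGFP, against 18% of tested genes. These were Rarb, 2.68-fold lower, and Rarg, 2.30-fold higher (2.20 to 2.40). Corrected for GC content and length, the log2 difference was -1.09 for Rarb, against -1.36 uncorrected, and 0.90 for Rarg, against 1.20 uncorrected. Rxrb was at 1.61 of shGFP with RA (1.47 to 1.76), and its log2 difference was 0.34 corrected and 0.68 uncorrected. Rxra and Rara were at 1.02 (0.929 to 1.12) and 1.07 (1.00 to 1.15).

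Untreated, 0 of 5 receptor genes differed 2-fold between shCtbp2 and shGFP, against 3.73% of tested genes. Rxra was at 0.715 of shGFP (0.633 to 0.808), Rara at 0.790 (0.728 to 0.857) and Rarg at 0.819 (0.778 to 0.861), all with intervals below 1. Rxrb was at 1.09 (0.983 to 1.20). Rxrg, untested, was at 0.357 (0.138 to 0.827), on 8 reads in shCtbp2_UT against 23 in shGFP_UT.

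Other genes of the pathway were taken from 4 lists. Of 16 genes of retinoid supply, binding and breakdown, 12 were tested, 7 rose with RA and none fell. For comparison, 10.8% of all tested genes rose and 4.63% fell. The median log2 RA effect of the list was 2.62, beside 0.07 over all tested genes. Cyp26a1 stood at 509 and 4.18 normalised reads in shRxr (RA and UT), at 2064 and 4.96 in shCtbp2, and at 2894 and 8.86 in shGFP (log2 6.53, SE 0.38, limma adjusted p 2.23e-06). Stra6, the receptor that takes up retinol, stood at 234 and 1.67 in shRxr, at 1252 and 0.827 in shCtbp2, and at 748 and 6.44 in shGFP (log2 5.59, SE 0.40, limma adjusted p 7.67e-06). Cyp26b1, a second RA-degrading enzyme, stood at 48.2 and 3.35 in shRxr, at 273 and 4.14 in shCtbp2, and at 743 and 7.25 in shGFP (log2 3.97, SE 0.48, limma adjusted p 0.000202). In all 3 genes, as in Rarb, RA libraries were above untreated ones in every line, and for each of these 3 the shRxr_RA library was the lowest of the RA libraries, whereas for Rarb it was shCtbp2_RA.

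Of 23 classical RAR targets 20 were tested, 17 rose and none fell, beside 10.8% raised and 4.63% lowered of all tested genes. Gata6 and Lamb1 of this list are also among the endoderm markers. The median log2 RA effect of the 20 tested targets was 3.15. The 3 highest were Stra8, of the meiotic programme (6.61), Zfp703, a transcriptional regulator (5.86), and Cdx1, a homeobox regulator (4.98). Stra8 stood at 4259 and 192.5 normalised reads in shRxr (RA and UT), at 4587 and 13.2 in shCtbp2, and at 6428 and 18.5 in shGFP. Cdx1 stood at 763 and 60.3 in shRxr, at 1542 and 14.1 in shCtbp2, and at 1000 and 12.9 in shGFP. Zfp703 stood at 556 and 17.6 in shRxr, at 2177 and 9.93 in shCtbp2, and at 2900 and 23.4 in shGFP. Stra8 and Cdx1, like Rarb, were higher in shRxr_UT than in the other untreated libraries. Zfp703, Cyp26a1, Stra6 and Cyp26b1 stood lower in shRxr_UT than in shGFP_UT. Of these, Cyp26a1, Stra6 and Cyp26b1 were at most 8.86 normalised reads there, where 3 reads correspond to 2.51 in shRxr_UT and 2.42 in shGFP_UT. No counting interval was computed for these target genes, so the untreated differences of Zfp703, Cyp26a1, Stra6 and Cyp26b1 are not separated from counting error. Stra8 (192.5 in shRxr_UT against 18.5 in shGFP_UT) and Cdx1 (60.3 against 12.9) stood well above the level of 3 reads in both libraries. Their untreated differences were not tested.

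Of 18 coregulators of the receptors, all tested, 1 rose and 3 fell with RA, beside 10.8% and 4.63% of all tested genes. The median log2 effect of the coregulators was -0.39. Nrip1, a corepressor that binds liganded receptors, rose by 1.83 (SE 0.31, limma adjusted p 0.00172), and stood at 1499 and 329 normalised reads in shRxr (RA and UT), at 562 and 283 in shCtbp2, and at 1475 and 275 in shGFP. The genes that fell were Ctbp2 (-1.21), Tbl1xr1, of the NCoR corepressor complex (-1.02), and the acetyltransferase Kat2b (-0.94, limma adjusted p 0.0497), the last named after its value was seen. Of 13 genes for other partners of RXR, 6 were tested and none passed. Their log2 RA effects ranged between -0.65 (Nr4a1) and 0.86 (Thra, limma adjusted p 0.062), both named after their values were seen. In the shRxr contrast no gene of the 4 lists passed, and in the shCtbp2 contrast 1 did, Ctbp2 itself.

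**Figure D5:**
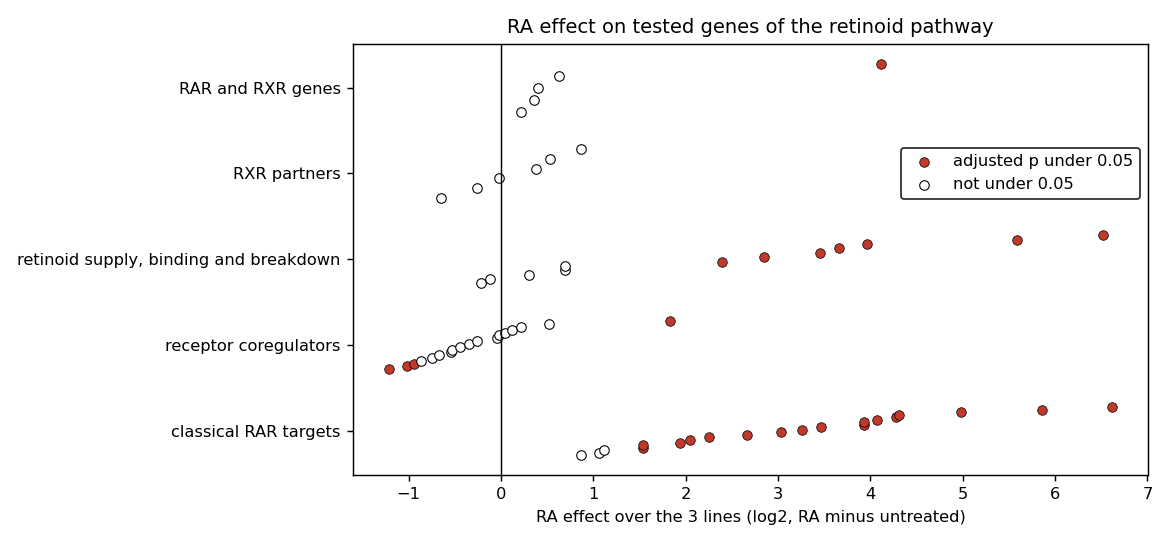
Log2 RA effect over the 3 lines (horizontal axis, limma) of the tested RAR and RXR genes and of the 4 pathway lists, with filled points for adjusted p below 0.05. Of the receptor genes 1 of 5 is filled, against 7 of 12 retinoid supply genes and 17 of 20 classical targets. Among all tested genes 10.8% were raised and 4.63% lowered.

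Of the nearest measured genes on the chromosome reported here, Col5a1 and Itgb7 passed the RA test. Among all tested genes RA raised 10.8% and lowered 4.63%. No neighbour passed the shRxr test, which called 0.00811% of tested genes. None passed the shCtbp2 test, which called 0.105% as raised and 0.0405% as lowered. Top2b, a DNA topoisomerase that ends 54 bases from Rarb in the deposited coordinates, had a log2 RA effect of -0.25 (limma adjusted p 0.61), and Nr1d2, a circadian nuclear receptor on the other side, of -1.06 (adjusted p 0.065). Next to Rxra, the histone methylation factor Wdr5 had a log2 shRxr effect of 0.01 and the collagen gene Col5a1 of -0.23 (limma adjusted p 1 for each), while Col5a1 rose with RA by 1.03 (adjusted p 0.026). Next to Rarg, the integrin gene Itgb7 fell with RA by 1.28 on the log2 scale (limma adjusted p 0.0077), and Gm9918 had an effect of 0.50 (adjusted p 0.28). The neighbours of Rara (Cdc6 and Top2a) and of Rxrb (Slc39a7, 121 bases away, and Col11a2), and Mgst3 beside Rxrg, had log2 RA effects between -0.71 and 0.81, and none passed.

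Genes with the pattern most like that of a receptor gene over the 6 libraries were sought among 5918 genes that averaged 50 or more and spanned 1 or more on the log2 scale. For Rarb they were Pptc7, Stx2 and Gfra1 (Pearson r of 0.997, 0.994 and 0.993), and 200 genes reached 0.95. Gfra1, a receptor subunit for a neurotrophic factor, stood at 280.2 and 33.5 normalised reads in shRxr (RA and UT), at 238 and 11.6 in shCtbp2, and at 497 and 15.3 in shGFP. For Rarg they were Hbegf, Calhm2 and Ier2 (r of 0.977, 0.967 and 0.956), and 4 genes reached 0.95. Hbegf, a growth factor, stood at 398 and 454 in shRxr, at 918 and 261 in shCtbp2, and at 278 and 256 in shGFP, so shCtbp2_RA was again the highest. For Rxra they were Stxbp2, Ifi30 and Inf2 (r of 0.954, 0.881 and 0.868), and 1 gene reached 0.95. Stxbp2 stood at 119 and 127 in shRxr, at 255 and 195 in shCtbp2, and at 218 and 176 in shGFP. The correlations describe 6 libraries of 3 lines that share treatments and base-composition differences, and carry no test.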

How the data were processed

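Per the labels' protocols, TruSeq libraries of F9 RNA were read on a HiSeq machine. Per the submitters' processing notes, TopHat 1.4 aligned the reads to build mm9 and HTSeq counted them. No source used here gives the strand setting, the counting mode or the annotation version, so reads from antisense genes could not be told apart. The deposited table holds log2 values that the authors made from each gene's reads after scaling every library to a total of 10000000, with 1 added, as read from the values. Whole reads came back for 100% of values (within 1e-06) when each library was divided by what 1 read is worth, and these reads give the exact Poisson intervals of levels and the exact binomial (Clopper-Pearson) intervals of folds. Of the value columns 0 were left over, and 25 symbols turned into dates were restored from the identifiers.

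A limma trend model (version 3.58.1, under R 4.3.3) was fitted to log2(normalised reads + 10) of 12332 genes with line and treatment as terms (2 residual and 11.2 prior degrees of freedom), Benjamini-Hochberg adjustment and a threshold of 0.05. The model was also run on simulated data with independent noise in each gene and library. These data held no line effects and no base-composition differences, so that run gives no error rate for the real libraries. Residuals are between libraries and not between replicate cultures. Length and GC content came from the longest GENCODE M21 transcript (98.4% of tested genes matched), and promoters from RefSeq (GRCm38.p6). All 6 receptor genes matched a promoter window by symbol. The Python 3.11.15 steps relied on scipy 1.17.1, pandas 2.3.3, numpy 2.4.6 and, for plots, matplotlib 3.10.9.

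The receptor genes, lists and rules were chosen with earlier results of these data known. Named genes were the 6 receptors, the 3 highest and 2 lowest called genes of each list by RA effect, the nearest measured gene on each side (1 of them is not reported here), and the 3 genes with the highest Pearson r to each receptor gene with a log2 span of at least 1. Alternatives were pseudocounts of 1 and 50, no minimum or a mean of at least 100, 2 other scalings, voom on whole reads, correction for GC content and length, and fits without the shCtbp2_RA library or without a line.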

Additional observations from a re-analysis of the deposited data

Results flagged for a closer look

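For a pair of receptor genes the RA response of a knock-down line ran opposite to that of shGFP, and neither difference was tested, since each group holds 1 library. Rarg was 2.55-fold higher with RA in shCtbp2, against a fold of 0.908 in shGFP. Rxrb had a fold of 0.857 with RA in shRxr, against 1.11 in shGFP. Corrected for GC content and length, the log2 RA change of Rarg was 0.58 in shCtbp2 and -0.54 in shGFP, and that of Rxrb was -0.29 in shRxr and -0.30 in shGFP, so the opposite directions of Rxrb were not seen in the corrected values.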

How the results depend on the processing

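The RA call of Rarb kept its direction and stayed past the threshold under all 12 alternatives. The shRxr call of Rxra (-2.90) was lost with no minimum, without the shCtbp2_RA library and without the shCtbp2 line, at the same log2 value of -2.90 each time. RA effects of receptor genes that were not called changed sign with correction for GC content and length for Rara (-0.0264), Rarg (-0.0614) and Rxrb (-0.25), and without the shCtbp2_RA library or the shCtbp2 line for Rarg (-0.14 in both) and Rxrb (-0.0335 in both). Of the knock-down effects that were not called, the shRxr effect changed sign for Rarb with a pseudocount of 50 (-0.0463) and for Rxrb with the correction (0.0112), and the shCtbp2 effect for Rara with equal upper quartiles (0.0026) and for Rarg without the shCtbp2_RA library (-0.29). A pseudocount of 50 moved the log2 RA change of Rarb to 2.49 in shRxr, 1.90 in shCtbp2 and 3.05 in shGFP, and the shRxr minus shGFP difference of Rxra to -2.69 (RA) and -2.21 (UT). Across alternatives RA raised between 375 and 1747 genes (1327 as reported) and lowered between 89 and 1498 (571), shCtbp2 raised 0 to 99 (13) and lowered 0 to 201 (5), and shRxr lowered 0 or 1 (1); the cause was not tested. Without the shGFP, shCtbp2 or shRxr line the RA calls were 375 and 89, 564 and 193, and 1747 and 1498 (raised and lowered), and without the shCtbp2_RA library 565 and 207. With other settings, 50 shares within a family moved and 22 did not, 39 differences between 2 libraries moved and 164 did not, and 11 differences in response moved and 47 did not. The fits compare RA with UT within lines, and lines within treatments, and there are no replicate numbers to add as a block. Depth limits untreated Rarb (3 to 15 reads) and Rxrg (6 to 23 reads), and single-library differences have no replicate check.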
